A study of Mus musculus with 70 samples.

Results

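Messenger RNA of 9 genes of blood clotting and clot breakdown was followed in leukocytes sorted from mouse blood: F3, F7, F10, F5, F13a1, Thbd, Plau, Plaur and Serpinb2. They were taken as 9 rows of a count table of 52636 genes, by Ensembl identifier, and were selected on their CPM levels over the cell types and groups of these same libraries, so those levels are a description and no independent evidence. The sorted cells were monocytes with high or low surface Ly6C, T cells and B cells, all from male C57BL/6J mice given as 7 to 8 weeks old. CON mice were unstressed controls, and the other mice went through chronic social defeat stress (CSDS) for 10 days, in which an aggressive CD-1 mouse repeatedly attacks the experimental mouse. The age is the one given for the defeat, and blood was taken after it. Stressed mice with a social interaction ratio below 1, which avoid an unfamiliar mouse, were called susceptible (SUS), and the rest were called resilient (RES). No genotype beyond the strain is named for these mice, and the labels name no individual mouse behind a library.

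Of 70 libraries, 68 were used. Each cell type had 6 libraries per group, except for 4 CON libraries of Ly6C-low monocytes, 5 RES libraries of B cells and 5 RES libraries of T cells. The library numbered 52 was labelled as B cells but was rich in T cell markers, and library 70 was labelled as T cells but was rich in B cell markers; both were left out. Library totals ran from 19769835 to 67038231 counts, with a median of 37105583.5. Brain is named as the source in the labels, whereas the series design and the methods describe blood, and the markers of each sorted type were highest in the libraries labelled with it for all 68. Levels are given as CPM, counts relative to a library total scaled to a common size, after normalization by the trimmed mean of M-values (TMM). Ly6C-low libraries also held transcripts of natural killer (NK) cells. Summed over 4 NK cell markers, these were at 245 to 826 CPM in CON, 339 to 905 in SUS and 493 to 1345 in RES. T cell libraries held at most 118 CPM of them. Their part in the levels given for Ly6C-low monocytes was not tested.

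Clotting starts when tissue factor (F3), a membrane protein, binds factor VII (F7) and activates factor X (F10). Activated factor X joins factor V (F5) on a membrane to make thrombin, thrombin cuts fibrinogen into fibrin, and factor XIII (F13a1 encodes its A subunit) crosslinks the fibrin. Thrombomodulin (Thbd) turns thrombin into an activator of the anticoagulant protein C. Urokinase (Plau) on its receptor (Plaur) makes plasmin, which digests fibrin, and plasminogen activator inhibitor type 2 (Serpinb2) blocks urokinase. Most soluble clotting factors in plasma come from the liver, but monocytes and macrophages make several of them and carry urokinase receptor and, when activated, tissue factor.

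The genes were unevenly spread over the 4 cell types, and most were monocyte genes. F13a1 was by far the most abundant, at 2311 ± 263 CPM (SD, n = 18) in Ly6C-high monocytes, with 1935 CPM in the lowest library. In Ly6C-low monocytes it was at 14.4 ± 7.27 CPM (SD, n = 16), with 26.3 CPM in the highest library, so the means lay 160-fold apart and no library of one type reached the other. Its means in T cells and B cells were 6.15 and 4.38 CPM, and those 3 neighbouring types overlapped.

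**Figure D1:**
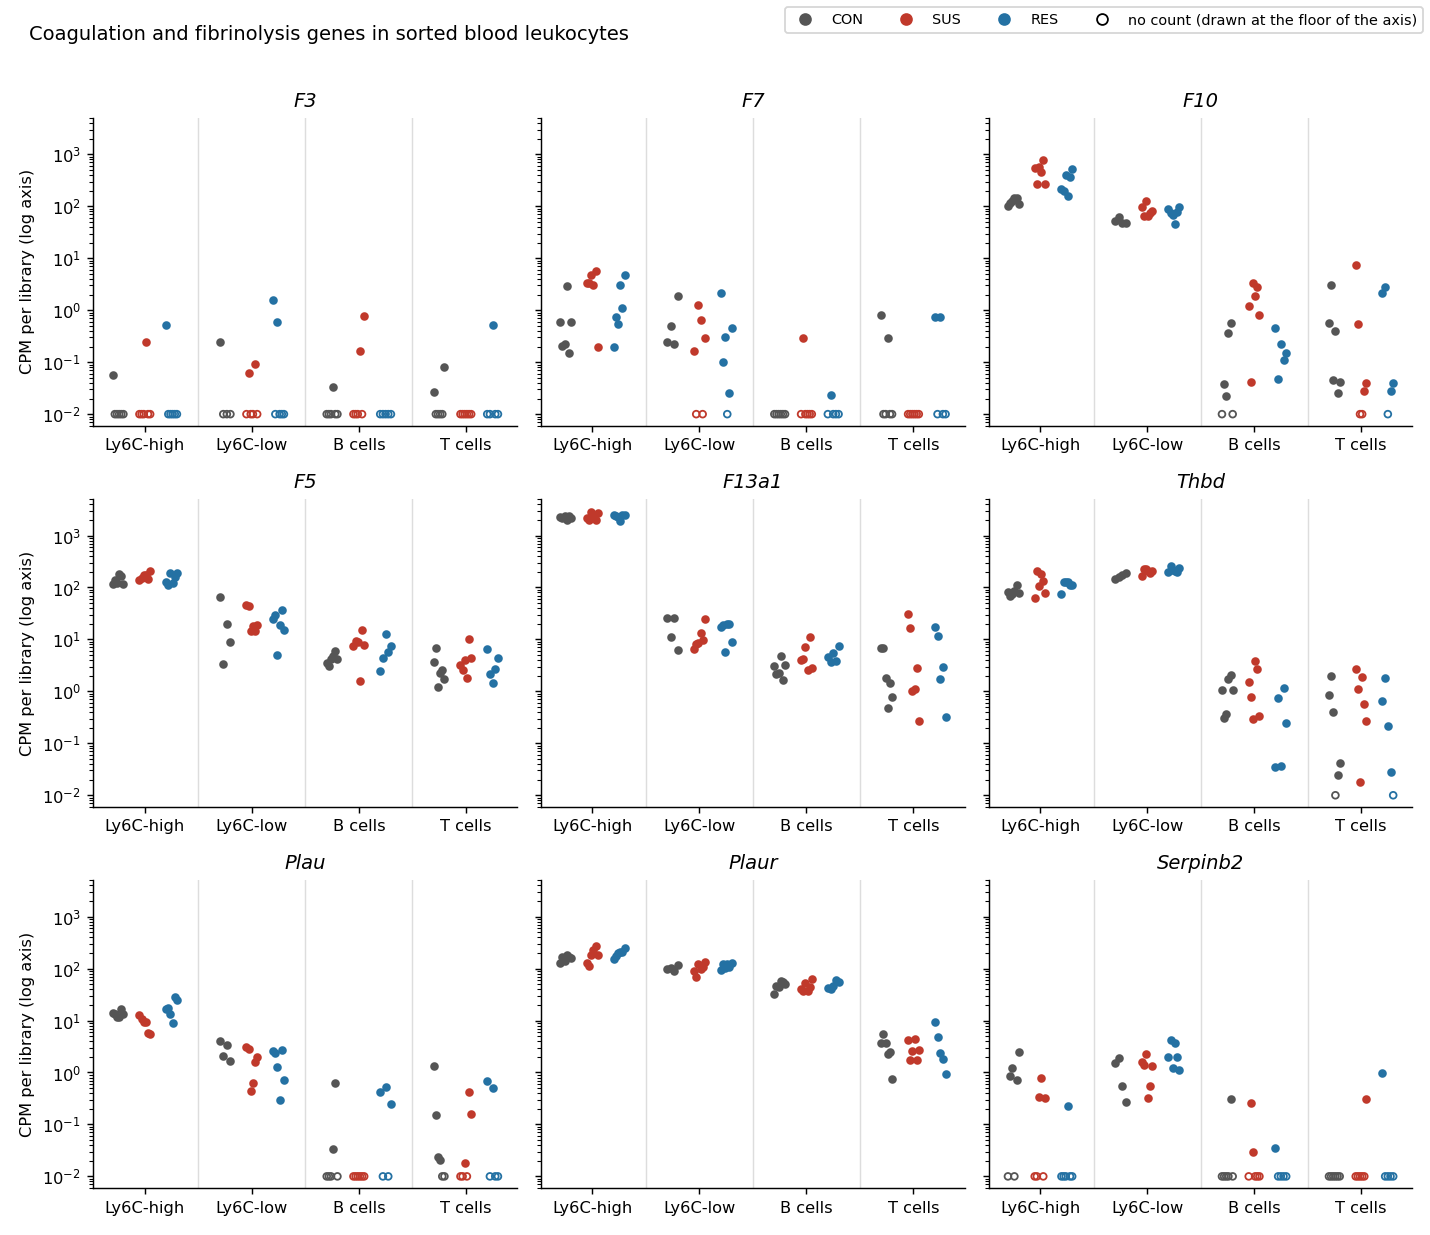
Level of each of the 9 genes in every library, as TMM-normalized CPM on a log axis, with the 4 cell types along the x axis and CON, SUS and RES libraries as separate points. F13a1 stands between 1935 and 2896 CPM in Ly6C-high monocytes and at or below 30.6 CPM in every other library, and F3 lies near 0 throughout.

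F10 and F5, the partners of the common pathway, also had their highest means in Ly6C-high monocytes. F10 was at 305 CPM there and 73.4 CPM in Ly6C-low monocytes, and the ranges of these types overlapped. It was at 1.02 CPM in T cells and 0.708 CPM in B cells, and no lymphocyte library reached a monocyte library. F5 was at 152 CPM in Ly6C-high monocytes, with 109 CPM in the lowest library, and at 24.1 CPM in Ly6C-low monocytes, with 66.5 CPM in the highest, so these did not overlap. F5 was detected in every lymphocyte library, at means of 6.40 CPM in B cells and 3.62 CPM in T cells.

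Thbd had the opposite order in monocytes. Its mean was 201 CPM in Ly6C-low and 108 CPM in Ly6C-high monocytes, with overlapping ranges, against 1.07 CPM in B cells and 0.742 CPM in T cells. Among the fibrinolysis genes, Plaur was the most widespread. It went from 179 CPM in Ly6C-high to 106 CPM in Ly6C-low monocytes, and from 47.3 CPM in B cells to 3.23 CPM in T cells. The monocyte types overlapped, while the lowest Ly6C-low library (67.5 CPM) stood above the highest B cell library (62.7 CPM) and B cells stood above T cells. Plau, the enzyme that Plaur binds, was at 13.5 CPM in Ly6C-high monocytes, 1.98 CPM in Ly6C-low monocytes and under 0.2 CPM in lymphocytes on average. The monocyte types did not overlap in Plau.

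F7, F3 and Serpinb2 were low. F7 averaged 1.98 CPM in Ly6C-high and 0.517 CPM in Ly6C-low monocytes and had 0 counts in 15 of 17 B cell and 13 of 17 T cell libraries. Serpinb2 averaged 1.61 CPM in Ly6C-low and 0.385 CPM in Ly6C-high monocytes. F3, which starts the cascade, had 0 counts in 54 of 68 libraries and at most 58 counts in one, and its means were at most 0.162 CPM. A count of 0 allows up to 3 counts in a library by counting error alone. All neighbouring types in the order overlapped for these 3 genes.

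Per kilobase of exon, which lets genes be compared with each other, F13a1 led in CON Ly6C-high monocytes at 331 CPM per kb. Plaur (59.7), F10 (45.6), Thbd (22.3), F5 (18.8), Plau (5.69), F7 (0.418) and Serpinb2 (0.373 CPM per kb) followed. In CON Ly6C-low monocytes the order began with Thbd at 45.0 CPM per kb, Plaur at 38.5 and F10 at 19.2. In CON B cells Plaur stood at 18.2 CPM per kb, followed by F5 at 0.575 and F13a1 at 0.424. In CON T cells Plaur stood at 1.17 CPM per kb, F13a1 at 0.451, F5 at 0.410, F10 at 0.253 and Thbd at 0.146.

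**Figure D2:**
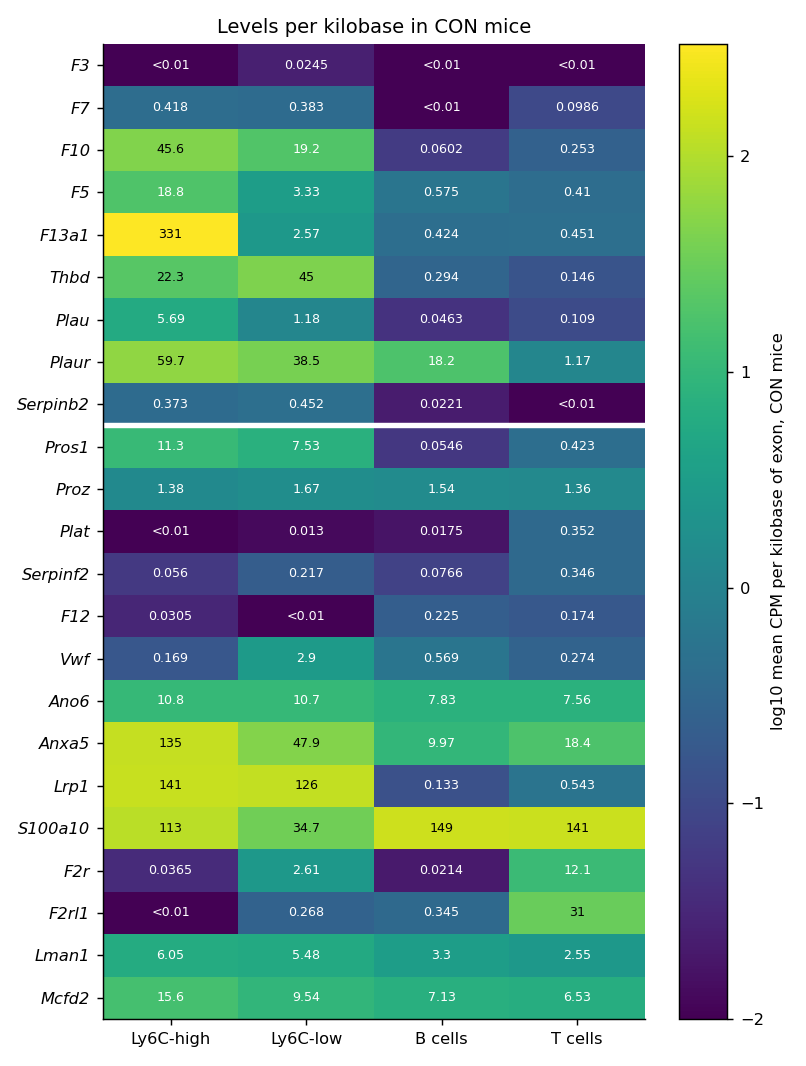
Mean level in CON mice of each gene in each sorted cell type, as CPM per kilobase of exon on a log10 colour scale. The upper rows are the 9 genes, and the lower rows are other genes of the system. F13a1 in Ly6C-high monocytes (331 CPM per kb) is the highest cell. Among the 9, Plaur has the highest level in B cells (18.2) and in T cells (1.17). S100a10, in the lower rows, is higher in both (149 and 141).

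Other genes of the system, a list of 44 that leaves out the 9, filled in the rest of the cascade. In CON mice, 19 of 44 reached a mean of 1 CPM in each monocyte type, 22 in T cells and 16 in B cells. Of the 12 circulating factors and kinin-system genes, 2 did so in any type. One was Vwf, the platelet-tethering von Willebrand factor, at 2.90 CPM per kb in Ly6C-low monocytes and 0.169 in Ly6C-high monocytes. The other was F8, factor VIII, named after its value was seen, at 1.17 CPM or 0.118 CPM per kb in B cells. F12, which starts the contact pathway, did not reach 1 CPM and was highest in B cells at 0.225 CPM per kb.

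Pros1, the cofactor of protein C, was at 11.3 CPM per kb in Ly6C-high and 7.53 in Ly6C-low monocytes, against 0.0546 in B cells. Proz, protein Z, stood between 1.36 and 1.67 CPM per kb in all 4 types. Lrp1, an endocytic receptor that clears protease and inhibitor complexes, was at 141 and 126 CPM per kb in Ly6C-high and Ly6C-low monocytes and below 0.6 in lymphocytes. S100a10, which with annexin A2 binds plasminogen, was at 149 CPM per kb in B cells, 141 in T cells, 113 in Ly6C-high monocytes and 34.7 in Ly6C-low monocytes. Of the 4 protease-activated receptor genes, F2r was at 12.1 and F2rl1 at 31.0 CPM per kb in T cells, against 0.0365 and 0.00484 in Ly6C-high monocytes. F2rl2, named after its values were seen, was highest in Ly6C-high monocytes, at 4.87 CPM per kb against 2.69 in T cells.

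Anxa5, which covers exposed phosphatidylserine, was at 135 CPM per kb in Ly6C-high monocytes and 47.9 in Ly6C-low monocytes. Ano6, the scramblase that exposes this lipid, varied little, from 7.56 in T cells to 10.8 in Ly6C-high monocytes. Lman1 and Mcfd2, which carry factors V and VIII out of the endoplasmic reticulum, were at 6.05 and 15.6 CPM per kb in Ly6C-high monocytes and lowest in T cells, at 2.55 and 6.53. The fibrinolysis genes Plat and Serpinf2 were at most 0.352 and 0.346 CPM per kb, both in T cells.

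F10 was the one gene of the 9 that edgeR called in a comparison within a cell type. F10 lies on chromosome 8, plus strand, 13037308 to 13056676 of GRCm38 (ENSMUSG00000031444), and F7 ends 1498 bases upstream of it on the same strand (13026034 to 13035809, ENSMUSG00000031443). The window from 250 bases before to 50 bases after the annotated start is printed for both, since they are neighbours of very different level, and for F13a1, whose level differed most between the monocyte types. F13a1 lies on chromosome 13, minus strand, 36867178 to 37050244 (ENSMUSG00000039109), and has another annotated start that is not printed. Sequences are RefSeq's, build GRCm38.p6, 5′ to 3′ on the strand of the gene, and 7 of the 9 genes had a window.

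Capitals mark every match, on either strand, to 7 short motifs, whose share among 32851 mouse windows of the same 300 bases is given with each: GAGGAA, the PU.1 core (28.3%), TTGCNNAA, a C/EBP site (10.8%), TGANTCA, an AP-1 site (7.81%), TTCNNNGAA, a STAT site (8.30%), GGGCGG, the GC box (35.7%), CCAAT, the CCAAT box (37.4%), and TATAAA, the TATA box (13.6%).
F7, chr8:13025784-13026083, plus strand: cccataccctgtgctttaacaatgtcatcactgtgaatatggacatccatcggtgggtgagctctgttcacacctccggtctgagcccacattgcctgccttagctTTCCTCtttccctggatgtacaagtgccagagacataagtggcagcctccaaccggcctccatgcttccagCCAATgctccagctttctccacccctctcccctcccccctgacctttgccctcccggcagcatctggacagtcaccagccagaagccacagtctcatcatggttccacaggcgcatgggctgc
F10, chr8:13037058-13037357, plus strand: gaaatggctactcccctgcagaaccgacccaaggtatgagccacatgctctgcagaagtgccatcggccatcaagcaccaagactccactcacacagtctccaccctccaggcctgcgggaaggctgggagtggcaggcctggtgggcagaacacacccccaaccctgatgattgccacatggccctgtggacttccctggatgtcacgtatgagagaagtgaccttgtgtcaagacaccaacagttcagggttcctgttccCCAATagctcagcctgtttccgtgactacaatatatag
F13a1, chr13:37050195-37050494, minus strand: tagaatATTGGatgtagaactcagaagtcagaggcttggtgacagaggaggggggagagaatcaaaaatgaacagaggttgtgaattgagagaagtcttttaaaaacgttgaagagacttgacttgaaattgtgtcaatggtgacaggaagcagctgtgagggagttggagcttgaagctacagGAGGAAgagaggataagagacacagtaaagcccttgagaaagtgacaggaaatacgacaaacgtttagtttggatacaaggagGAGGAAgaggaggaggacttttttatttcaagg

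In the F10 window, 1 match was found, a CCAAT at position 12 counted from the annotated start as 0. The F7 window held a GAGGAA match on the opposite strand at -144 and a CCAAT at -73. The F13a1 window held GAGGAA at -66 and 17 and CCAAT on the opposite strand at -244. These motifs are common, so a match is a description of the letters and no site of binding.

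F10 in Ly6C-high monocytes ran from 101 to 146 CPM in the 6 CON libraries, with a median of 122. The 6 SUS libraries ran from 263 to 778 CPM with a median of 505, and the 6 RES libraries from 157 to 526 CPM with a median of 292. Every SUS and every RES library thus lay above all CON libraries, while SUS and RES overlapped, with 3 of 6 SUS libraries above all RES libraries. The means were 124 ± 18.6 CPM (SD, n = 6) in CON, 482 ± 197 in SUS and 309.6 ± 143 in RES, so the spread was also wider in the stressed groups.

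In the fit over all genes, F10 rose in SUS against CON with a log2 fold change of 1.92 (SE 0.27, adjusted p = 0.00042 by edgeR's quasi-likelihood test with Benjamini-Hochberg adjustment). It rose in RES against CON by 1.30 (SE 0.27, adjusted p = 0.014 in the same edgeR test). SUS and RES differed by 0.62 on the log2 scale (SE 0.26), which missed the threshold (adjusted p = 0.999, edgeR). To be called, a gene needed an adjusted p under 0.05 together with a log2 fold change beyond 1 in either direction. Of 16955 genes tested, 3.45% were called in SUS against CON (387 higher, 198 lower) and 0.997% in RES against CON, next to 1 of 8 tested genes of the 9 in each. With the size factors of DESeq2 in place of TMM the split of the first was 296 higher and 244 lower. Groups did not overlap for 6.96% and 4.42% of genes in these comparisons. Since F10 was chosen with these values known, nothing is read from those shares.

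**Figure D3:**
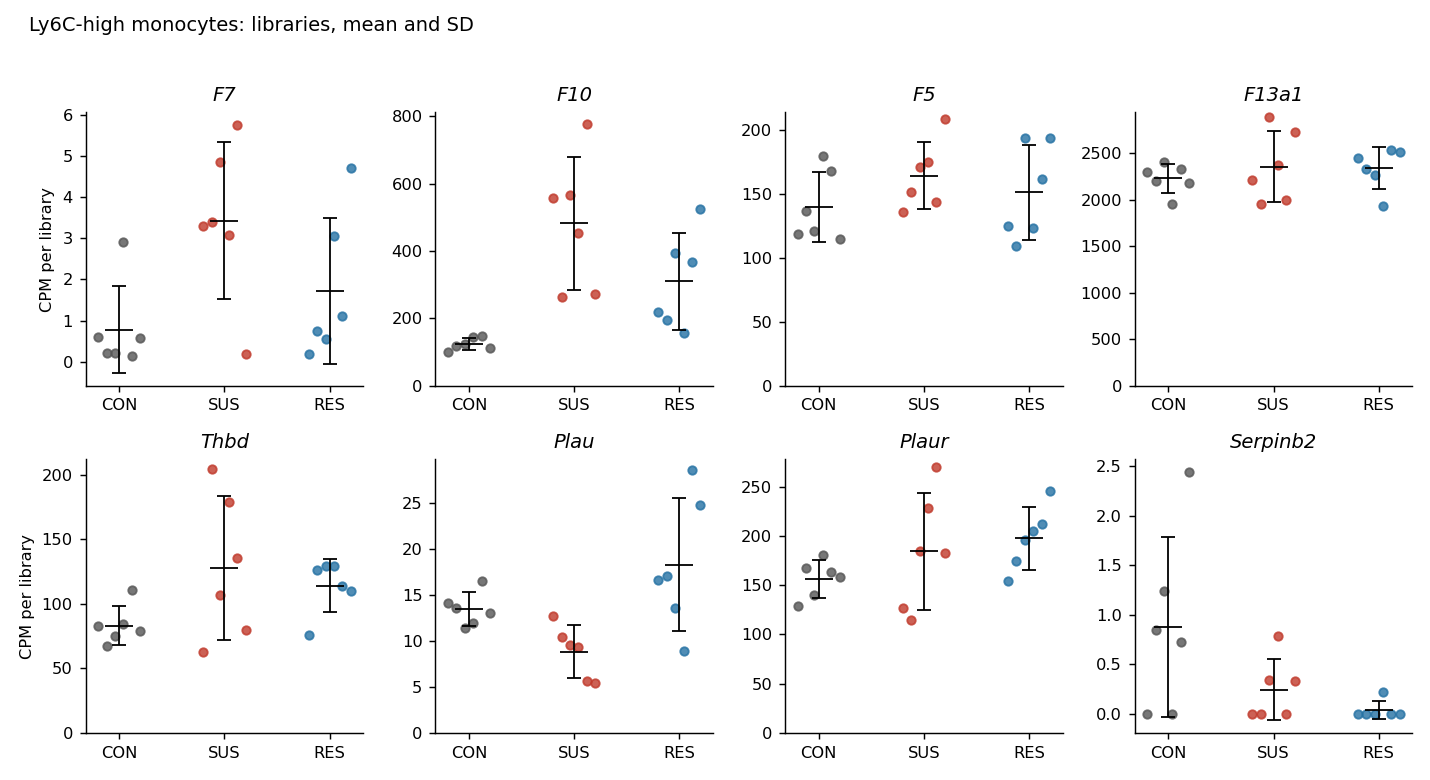
Level in each Ly6C-high monocyte library of CON, SUS and RES mice, in CPM on a linear axis with its own scale for each gene; points are libraries and bars are the mean and SD of 6 libraries. All SUS libraries of F10 (263 to 778 CPM) and all RES libraries (157 to 526 CPM) lie above the CON libraries (101 to 146 CPM), and the other genes overlap.

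Red cell transcripts moved with these groups. The summed level of 6 red cell markers, among them the hemoglobin genes, ran from 339.7 to 1213 CPM in CON, 1087 to 8854 in SUS and 1068 to 4312 in RES Ly6C-high libraries. The SUS library with the most F10 (778 CPM) had the highest sum (8854), and the one with the least F10 (263 CPM) had the lowest (1087). Among RES libraries the one with the highest sum (4312) had 196 CPM of F10. With the red cell markers as a covariate, the log2 fold change of F10 was 1.23 in SUS against CON and 0.78 in RES against CON, and neither was called (adjusted p = 0.307 and 0.883, edgeR). The calls over all genes went from 585 to 1 and from 169 to 0 in that fit.

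**Figure D4:**
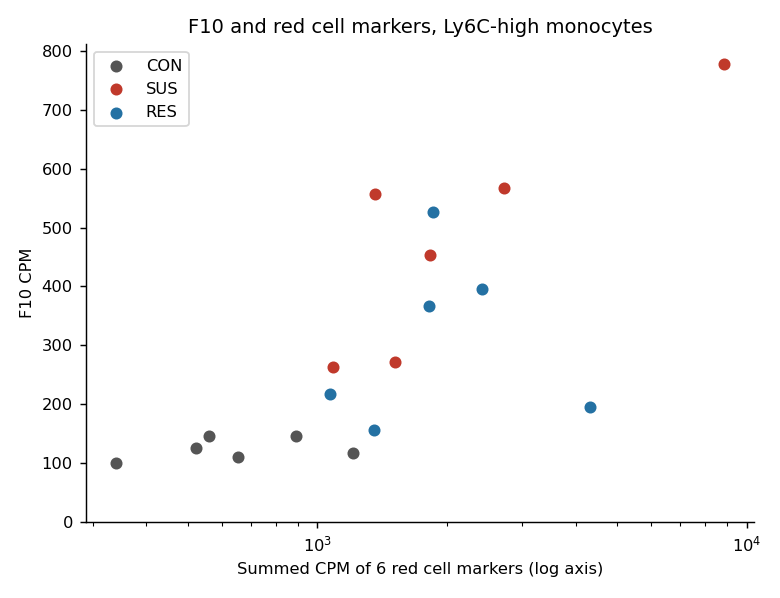
F10 level (CPM, linear axis from 0) against the summed CPM of 6 red cell markers (log axis) in the 18 Ly6C-high monocyte libraries, coloured by group. CON libraries lie at the lower left (F10 at most 146 CPM, red cell sum at most 1213 CPM), and stressed libraries spread upward and to the right.

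Other markers also moved. The 5 Ly6C-high monocyte markers summed to between 4409 and 5752 CPM in CON and between 6882 and 10691 CPM in SUS. In RES they summed to between 4764 and 8500 CPM and overlapped CON. Granule progenitor markers, 4 genes made early in the myeloid lineage, summed to between 3.74 and 31.8 CPM in CON, 12.1 and 143 CPM in SUS and 20.1 and 83.5 CPM in RES. Neutrophil markers, 6 genes, overlapped between the groups, at 9.58 to 358 CPM in CON, 19.7 to 1179 in SUS and 6.08 to 614 in RES. The part of these markers, and that of the red cell transcripts, in the F10 difference was not tested beyond the covariate fit. Platelet markers overlapped between the groups, at 60.1 to 89.5 CPM in CON, 48.2 to 125 CPM in SUS and 42.6 to 83.7 CPM in RES. With them as a covariate F10 was at 1.54 in SUS (adjusted p = 0.0184, edgeR) and 1.07 in RES against CON (adjusted p = 0.0634, edgeR). Liver markers, 4 genes including albumin, summed to at most 1.24 CPM and 5 endothelial markers to at most 3.53 CPM in any monocyte library, with the mean of each marker under 1 CPM. In bulk libraries of sorted cells, fewer cells of a type and less RNA per cell cannot be told apart.

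The Ly6C-low monocytes had F10 values of 52.7, 61.4, 48.6 and 47.5 CPM in the 4 CON libraries. The SUS libraries ran from 64.1 to 128 CPM, with a median of 77.7, and all lay above CON; the RES libraries ran from 45.5 to 96.4 CPM, with a median of 76.3, and 5 of 6 lay above CON. The log2 fold changes were 0.69 (SE 0.20, adjusted p = 0.192, edgeR) in SUS and 0.49 (SE 0.20, adjusted p = 0.402, edgeR) in RES against CON, and neither was called. Red cell markers summed to between 290.9 and 1256 CPM in these CON libraries and between 852 and 2653 CPM in SUS.

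F10 in B cells was near the floor: CON libraries ran from 0 to 0.562 CPM with a median of 0.0303, SUS from 0.0424 to 3.28 with a median of 1.57, and RES from 0.0473 to 0.464 with values of 0.464, 0.0473, 0.224, 0.109 and 0.148. The highest count of F10 in any B cell library was 112. The SUS libraries were the high ones, though 1 of 6 lay within the CON range; the log2 fold change of 3.33 (SE 1.18) had a p of 0.0092 and an adjusted p of 0.999 in edgeR. Vcan and Chil3, from the list of 5 Ly6C-high monocyte markers, reached 3.28 and 13.7 CPM in SUS B cell libraries, against at most 0.533 and 2.82 CPM in CON. Vcan was as low as 0.0636 CPM in SUS, and Chil3 reached 5.89 CPM in RES. The SUS library with 2.78 CPM of F10 had Vcan at 0.0670 and Chil3 at 13.7 CPM. The sums of the 5 markers overlapped, at 669 to 934 CPM in CON, 740 to 1016 in SUS and 763 to 1023 in RES. Summed NK cell markers ran from 3.02 to 5.96 CPM in CON, 12.5 to 33.6 in SUS and 7.78 to 21.7 in RES B cell libraries, and red cell markers from 1329 to 7859.9, 3020 to 12583 and 3446 to 9629.7 CPM. The part of these transcripts was not tested. In T cells F10 stayed at medians of 0.221, 0.0336 and 0.0395 CPM in CON, SUS and RES. The T cell libraries numbered 53 to 58 in the labels held between 0.536 and 7.49 CPM, and the others at most 0.395 CPM.

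Whether the SUS effect on F10 differed between cell types was tested over 68 libraries in 1 fit. The effect in Ly6C-high monocytes exceeded that in Ly6C-low monocytes by 1.26 on the log2 scale (SE 1.04, adjusted p = 0.674, edgeR), differed from that in B cells by -1.43 (SE 1.31, adjusted p = 0.610, edgeR) and from that in T cells by 1.07 (SE 1.09, adjusted p = 0.684, edgeR). With only both monocyte types in the fit the first was 1.23 (SE 0.38, adjusted p = 0.165, edgeR). No difference of F10 was called. Among 24248 genes, 0.363%, 6.18% and 3.22% were called in these 3 comparisons.

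F7, the neighbour of F10, was much lower but spread in the same groups. In Ly6C-high monocytes CON libraries ran from 0.150 to 2.90 CPM (6 to 101 counts) with a median of 0.403, SUS from 0.200 to 5.75 with a median of 3.34, and RES from 0.193 to 4.69 with a median of 0.930. In SUS, 5 of 6 libraries stood above all CON libraries and 1 stood inside their range. The log2 fold changes were 2.08 (SE 0.87, adjusted p = 0.12, edgeR) in SUS and 1.09 (SE 0.85, adjusted p = 0.498, edgeR) in RES against CON. One CON library decided the call: without CON replicate 4, at 2.90 CPM, the SUS value was 3.22 (adjusted p = 0.0229, edgeR). Ly6C-low monocytes had 0.248, 0.497, 0.229 and 1.88 CPM in CON and medians of 0.227 in SUS and 0.200 CPM in RES.

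Against T cells the SUS effect on F7 differed by 7.94 on the log2 scale (SE 2.20, adjusted p = 0.0325, edgeR), the one difference called among the 9. F7 was not tested within T cells. All 6 SUS T cell libraries had 0 counts of F7, and 4 of 6 CON T cell libraries had 0 as well, with at most 30 counts. The value of the difference thus depends on the prior count and is not a measure of size. In a fit of only both cell types it was 8.05 with an adjusted p of 0.0706 (edgeR). The gene after F10, Proz, is on the same strand, 4237 bases further, and its log2 fold change in Ly6C-high monocytes was 0.01 (SE 0.29) in SUS and 0.19 (SE 0.29) in RES against CON.

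F3 was tested in no comparison within a cell type, because too few libraries had counts. Its highest level was 1.59 CPM, in a RES library of Ly6C-low monocytes, and in Ly6C-high monocytes it was above 0 in 1 of 6 libraries of each group. F3 lies on chromosome 3, plus strand, 121723537 to 121735048.

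F5 (chromosome 1, plus strand, 164151838 to 164220277) overlapped between all groups of Ly6C-high monocytes. CON libraries ran from 114 to 179 CPM with a median of 129, SUS from 136 to 209 with a median of 161, and RES from 109 to 194 with a median of 143. The log2 fold changes were 0.20 (SE 0.16) and 0.10 (SE 0.16) in SUS and RES against CON, with adjusted p of 0.479 and 0.791 in edgeR. In Ly6C-low monocytes F5 varied widely within groups, from 3.32 to 66.5 CPM in CON. In B cells its medians were 4.18, 8.32 and 5.85 CPM in CON, SUS and RES, and the SUS difference of 0.98 (SE 0.39) had a p of 0.018 and an adjusted p of 0.999 in edgeR.

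F13a1, in spite of its high level, hardly differed between groups. In Ly6C-high monocytes it had medians of 2255 CPM in CON, 2294 in SUS and 2392 in RES, with means of 2231 ± 159, 2360.0 ± 386 and 2340.6 ± 224 CPM (SD, n = 6 each). The log2 fold changes were 0.04 (SE 0.11) in SUS and 0.06 (SE 0.11) in RES against CON. Each library held between 45637 and 140571 counts of it. The sign of the SUS value turned to -0.019 with DESeq2's size factors, so no direction is given. The antisense genes Gm30489 and Gm49144 overlap F13a1 on the opposite strand, at 9.64 and 1.71 CPM in Ly6C-high monocytes.

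In T cells F13a1 ranged from 0.273 to 30.6 CPM. Of 17 libraries, 6 were above 5 CPM: 6.80 and 6.91 CPM in CON, 30.6 and 16.5 CPM in SUS, and 17.6 and 11.5 CPM in RES. These are the T cell libraries numbered 53 to 58 in the labels, which do not say what the number marks, and the remaining libraries lay between 0.273 and 2.90 CPM. The monocyte gene Chil3 was also higher in these libraries, against at most 3.28 CPM in the others. Listed library by library as for F13a1, it was at 4.67 and 8.51 CPM in CON, 40.3 and 37.7 in SUS and 14.1 and 11.1 in RES. The monocyte gene Vcan ran from 0.725 to 23.8 CPM in the same libraries and up to 0.907 CPM in the others, so it overlapped. Both are from the list of 5 Ly6C-high monocyte markers, whose sums also overlapped. With all 70 libraries normalized together, these sums were 756 to 995 CPM in libraries 53 to 58 and 755 to 977 CPM in the others. The part of such transcripts in the F13a1 level of T cells was not tested. F13a1 in B cells was at medians of 2.66, 4.10 and 4.64 CPM in CON, SUS and RES.

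Thbd (chromosome 2, minus strand, 148404466 to 148408188) overlapped between groups in Ly6C-high monocytes. CON libraries ran from 67.2 to 111 CPM with a median of 80.8, SUS from 62.6 to 205 with a median of 121, and RES from 76.0 to 129 with a median of 119.9. The SUS libraries were the most scattered, with 3 above and 1 below all CON libraries. The log2 fold changes were 0.59 (SE 0.22, adjusted p = 0.0799, edgeR) and 0.44 (SE 0.22, adjusted p = 0.251, edgeR).

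In Ly6C-low monocytes, where Thbd was highest, the 4 CON libraries held 144, 163, 177 and 188 CPM. SUS libraries ran from 164 to 230.1 CPM with a median of 206 and RES from 197 to 253 CPM with a median of 212. All 6 RES libraries were above CON and 5 of 6 SUS libraries were. The differences were small, with log2 fold changes of 0.28 (SE 0.10, adjusted p = 0.290, edgeR) in SUS and 0.36 (SE 0.10, adjusted p = 0.178, edgeR) in RES against CON. In this cell type 0.0871% and 0.0154% of 19521 genes were called in these comparisons, 1.98% and 2.67% did not overlap, and none of 8 tested genes of the 9 was called. At an unadjusted p under 0.05 there were 2 of 8 in each comparison, F10 and Thbd, next to 1857 and 1888 over all genes, and DESeq2 called 0.

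Plau (chromosome 14, plus strand, 20836660 to 20843385) had the lowest p of the 9 between the stressed groups. In Ly6C-high monocytes CON libraries ran from 11.5 to 16.6 CPM with a median of 13.3, SUS from 5.42 to 12.8 with a median of 9.42, and RES from 8.95 to 28.6 with a median of 16.9. In SUS, 5 of 6 libraries stood below all CON libraries, while 4 of 6 RES libraries stood above all CON libraries. SUS against CON had a log2 fold change of -0.64 (SE 0.26, adjusted p = 0.112, edgeR) and RES against CON 0.43 (SE 0.26, adjusted p = 0.362, edgeR).

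SUS against RES, Plau had a log2 fold change of -1.07 (SE 0.26) with an unadjusted p of 0.00046 and an adjusted p of 0.71 in edgeR, and in DESeq2 -1.06 with an adjusted p of 0.0472, which was called. In that comparison edgeR called 0 of 16955 genes (0%), with 620 at an unadjusted p under 0.05 and 20 called by DESeq2, and groups did not overlap for 0.136% of genes and for none of the 9. Of the 9, F10 and Plau had an unadjusted p under 0.05 in edgeR. In Ly6C-low monocytes Plau was at 3.99, 2.06, 3.43 and 1.67 CPM in CON and at medians of 1.80 and 1.85 CPM in SUS and RES.

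Plaur (chromosome 7, plus strand, 24462484 to 24475968) overlapped in every comparison. In Ly6C-high monocytes CON libraries ran from 128 to 181 CPM with a median of 161, SUS from 114 to 269.8 with a median of 184, and RES from 154 to 245 with a median of 200.1. The log2 fold changes were 0.20 (SE 0.17) in SUS and 0.32 (SE 0.17) in RES against CON. In B cells it held 47.6 ± 9.24, 45.5 ± 10.3 and 49.0 ± 8.61 CPM (SD, n = 6, 6 and 5) in CON, SUS and RES, the narrowest relative spread of the 5 genes tested in that type.

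Serpinb2 (chromosome 1, plus strand, 107511423 to 107535478) was at medians of 0.786, 0.162 and 0 CPM in CON, SUS and RES Ly6C-high monocytes, with 0 counts in 2, 3 and 5 of 6 libraries. The fold change of a gene this low depends on the prior count and is not given. In Ly6C-low monocytes it was at 1.06 ± 0.783 CPM (SD, n = 4) in CON, 1.24 ± 0.701 in SUS and 2.35 ± 1.30 in RES, and 4 of 6 RES libraries stood above CON. The gene shares its stretch and strand with Serpinb10, at 139 CPM in Ly6C-high monocytes, so reads in the overlap are uncertain.

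**Figure D5:**
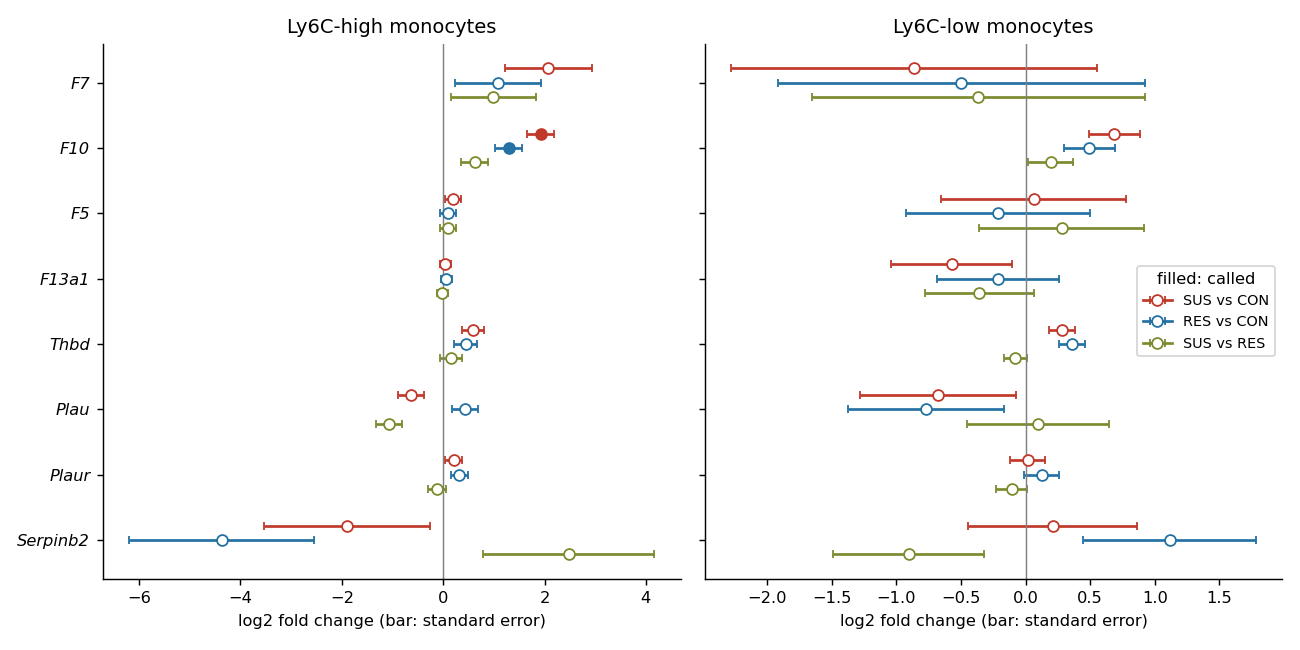
Log2 fold changes of the 8 tested genes in both monocyte types, with the standard error as bar and filled points for called genes; each panel has its own axis range. F10 is filled for SUS (1.92) and RES (1.30) against CON in Ly6C-high monocytes, and no point is filled in Ly6C-low monocytes.

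In lymphocytes and between the stressed groups of Ly6C-low monocytes none of the tested genes of the 9 was called by edgeR or by DESeq2. B cells had 5 tested genes, with 3 at an unadjusted p under 0.05 in SUS against CON (F10, F5 and F13a1), 1 in RES against CON and 1 in SUS against RES. Over all 17620 genes, 602 had such a p in SUS against CON in B cells. T cells had 5 tested genes with 0 at that level in each comparison. Over all genes edgeR called 0.00568% in B cells and 0.0265% in T cells for SUS against CON, and 0% for the other B and T cell comparisons, where 560, 240, 775 and 451 genes had an unadjusted p under 0.05. For SUS against RES in Ly6C-low monocytes edgeR called 0% of genes while 740 had an unadjusted p under 0.05, none of the 9 had one, and groups did not overlap for 0.164% of genes.

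Among the 44 other genes of the system, 20 were tested in Ly6C-high monocytes, and 1 rose and 0 fell in SUS against CON. That gene was S100a10, at a log2 fold change of 1.01 (SE 0.21, adjusted p = 0.0038, edgeR). In most alternatives other than leaving libraries out in turn it was not called, since it fell below 1 or missed the threshold on p. With libraries left out in turn it ran from 0.72 to 1.14, with adjusted p at most 0.0128 (edgeR). On the adjusted p alone, 5 of 20 were higher, with Anxa2 at 0.95, Eno1 at 0.97, Pros1 at 0.66 and Anxa5 at 0.44 beside it, and 0 were lower. Over all 16955 genes, 1488 were higher and 651 lower by that criterion. The median of the 20 was 0.24 against -0.05 over all genes. With the red cell covariate S100a10 was at 0.30 (adjusted p = 0.909, edgeR). Eno1 shares sequence with the near-identical copy Eno1b, and how such reads were counted is not given in the sources used here.

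In RES against CON, 0 of the 20 were called by edgeR. At an unadjusted p under 0.05 there were 5 of the 20, all higher, next to 2151 genes higher and 1448 lower over all 16955 genes. The adjusted p alone was passed by Anxa2 (0.71), S100a10 (0.76) and Eno1 (0.76), all higher, next to 629 genes higher and 213 lower over all genes. The median was 0.20 against -0.03 over all genes. In the other cell types 25 to 28 of the 44 were tested and edgeR called 0 in each comparison, with between 1 and 5 at an unadjusted p under 0.05. In SUS against RES in Ly6C-high monocytes it called 0 of the 20, with 1 at that level. DESeq2 called 0 of the list in every comparison within a cell type.

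Genes most like each member by Pearson's r of log2(CPM + 0.5) over the 12 group means followed the cell type order above. F13a1 was closest to Fn1 (fibronectin, r = 0.997), Clec5a and Cd177, Thbd to Sec14l1 (0.998), Cebpb and Itgb5, and Plaur to Stx7 (0.998), Rnf130 and 5031439G07Rik. F10 was closest to B4galt6 (0.993), Cmpk1 and Alox5ap, F7 to Gpx3 (0.993) and Coa5, F5 to Rusc2 (0.990), Atp6v0c and Tmem205, Plau to E230016K23Rik (0.992), Gm47815 and Met, and Serpinb2 to Tmem151a (0.964), Gm45413 and Gm15157. The points share cell type and libraries, and 17830 genes were compared. With a pseudocount of 0.1 CPM, 0 of the 3 genes named for F10 and for Plau were among the top 3. Among the genes themselves F5 and Plau were most alike (r = 0.964) and F13a1 and Serpinb2 least (0.127).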

How the data were processed

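The deposited file holds raw counts per gene that the authors made by aligning reads to mm10 with HISAT2 and counting with htseq-count against an Ensembl annotation (release 90), from libraries made with SMARTer's stranded pico-input kit for total RNA. Blood leukocytes were sorted by CD11b, Ly6C, Ly6G, B220 and CD90.2 after red cell lysis. The strand setting of the counter and the treatment of multiply mapped reads are not given in the sources used here. Of 52636 gene rows, 52489 were named through a mouse annotation of build GRCm38.

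Counts were fitted per cell type, with CON, SUS and RES together, by edgeR 4.0.16 (R 4.3.3; filterByExpr, TMM, robust quasi-likelihood test, Benjamini-Hochberg over all genes tested). Standard errors are the fold change over the root of F. The difference of the SUS effect between cell types came from 1 fit of 12 group means. DESeq2 1.42.0, its size factors within edgeR, no filter and one that needs 10 counts in each library of the type, fits of only the groups compared, red cell and platelet covariates, libraries left out in turn and the libraries 52 and 70 kept were alternatives. Levels are TMM-normalized CPM, per kilobase of summed exon length between genes. Named genes are the 9, called genes of the list of 44, the 2 of each of its role classes highest per kilobase in CON mice, and 3 genes most like each of the 9 with a mean of at least 1 CPM, of which 1 is not reported here. The tests were tried on simulated data. The genes, lists and tests were chosen with earlier results of these data known.

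P-values set differences between groups against the spread between libraries, which may be technical, since the labels name no mouse. Reads had no molecular identifiers, so limits from a count of 0 cover counting error only. No 2 libraries held identical values.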

Additional observations from a re-analysis of the deposited data

Results flagged for a closer look

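In 42 groups of 4 to 6 libraries with a mean of at least 5 CPM, 2 had a library far from the rest, and chance alone flags about 1 in 20 groups. F13a1 in Ly6C-low monocytes stood at 24.2 CPM in SUS replicate 6, against a group median of 9.16 CPM. Thbd in Ly6C-high monocytes stood at 76.0 CPM in RES replicate 1, against a group median of 119.9 CPM.

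The SUS effect on F7 differed between Ly6C-high monocytes and T cells by 7.94 on the log2 scale, by the test of the difference itself (adjusted p = 0.0325, edgeR). All 6 SUS and 4 of 6 CON T cell libraries had 0 counts, and F7 was not tested within T cells. The value depends on the prior count and is not a measure of size. In a fit of only both cell types it was not called (adjusted p = 0.0706, edgeR).

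Library 70, labelled as T cells but rich in B cell markers and left out of the comparisons, held F13a1 at 7.96 CPM and Plaur at 46.6 CPM. It is labelled RES. Both are above the CON T cell libraries, which had at most 6.91 and 5.59 CPM. The F13a1 level lay inside the range of the other RES T cell libraries (0.316 to 17.6 CPM), and the Plaur level above it (0.947 to 9.47 CPM). The CON B cell libraries ran from 1.69 to 4.81 and from 31.9 to 57.3 CPM. The RES B cell libraries ran from 3.67 to 7.58 CPM in F13a1 and from 40.5 to 59.9 CPM in Plaur. The Plaur level of library 70 lay inside that range, and its F13a1 level lay above.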

How the results depend on the processing

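Among the 9 genes in Ly6C-high monocytes, the number called went from 1 to 0 in SUS against CON and in RES against CON with the red cell covariate, from 1 to 0 in RES against CON with the platelet covariate, and from 0 to 1 (Plau) in SUS against RES with DESeq2. It ranged from 1 to 2 in both comparisons with CON when libraries were left out in turn. F7 was added without CON replicate 4. Serpinb2 was added without RES replicate 4, the only RES library there with counts of Serpinb2. F10 ranged from 1.69 to 2.05 in SUS and from 1.09 to 1.44 in RES against CON, with adjusted p at most 0.00237 and 0.0493 (edgeR). The F7 difference against T cells went from 1 to 0 calls with only both cell types. Signs turned for Plaur in SUS against CON in Ly6C-high monocytes with the red cell covariate (-0.23), for F13a1 there with DESeq2's size factors (-0.019), DESeq2 (-0.0196), the stricter filter (-0.039) and libraries left out (-0.022 to 0.090), and for F5 in B cells with the platelet covariate (-0.12). The cause of these was not tested.

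Without TMM, levels in Ly6C-low monocytes were 64.7 CPM for F10 in CON, 205, 239 and 252.0 CPM for Thbd in CON, SUS and RES, and 124 and 128 CPM for Plaur in CON and RES; with libraries 52 and 70 kept, Plaur was at 11.1 CPM in RES T cells. With a pseudocount of 0.1 CPM, 0 of 3 genes most like F10 and Plau and 1 of 3 most like F7, F5 and Serpinb2 remained. No paired analysis was possible because the labels give no replicate numbers; those used here name libraries in accession order and pair none.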
